A study of Homo sapiens with 8 samples.

Results

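The aminoacyl-tRNA synthetases were followed in 4 human thyroid cancer cell lines in which NR1D1, a nuclear receptor and transcriptional repressor of the circadian clock, had been lowered or raised. The members were 35 genes listed by symbol, 19 for enzymes of the cytosol and 16 for enzymes of mitochondria, out of 58884 gene identifiers in the deposited tables. All 35 were matched through their Ensembl identifiers and had a mean of at least 1 TPM (transcript level scaled to a library sum of 1000000) over the 8 libraries.

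Every line gave 2 RNA-seq libraries, so each group had 1 library. 8505C and CAL-62, both from anaplastic cancers, were given siRNA against NR1D1 (genotype label NR1D1 knockdown) or control siRNA (label WT). TPC-1, from a papillary cancer, and FTC-133, from a follicular one, carried an NR1D1 vector (label NR1D1 overexpression) or the empty vector (label WT). The siRNA sequence, the harvest time and whether the vector cells were clones are not analysed here.

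Aminoacyl-tRNA synthetases attach each amino acid to its own tRNA, so they set which residue the ribosome inserts at a codon. Human cells keep a cytosolic set and another, encoded by separate nuclear genes, that is imported into mitochondria and serves the few proteins of the mitochondrial genome. GARS1 and KARS1 each supply both compartments. Several cytosolic enzymes sit in a multi-synthetase complex held by the scaffold proteins AIMP1, AIMP2 and EEF1E1. Under amino acid shortage or stress of the endoplasmic reticulum, the transcription factor ATF4 switches on many cytosolic synthetase genes together with genes for amino acid synthesis and uptake.

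ATF4 binds with C/EBP proteins to sites that can read TGATGCAA on either strand. RefSeq promoter windows of GRCh38.p14, from 250 bases before to 50 bases after the start of each gene, were searched for these letters and their reverse complement TTGCATCA, and 0.923% of 27305 windows held them. Of the 13 cytosolic members known as ATF4 targets, 10 were in the promoter table and 6 of the 10 held the motif. It was found in 0 of the 6 other cytosolic members and in 0 of the 14 mitochondrial members in the table. Of 21 amino acid response genes, followed further below, 19 were in the table and 1 of the 19, CHAC1, held the motif. With the sixth base free (TGATGNAA) the counts were 6 of 10, 0 of 6, 1 of 14 and 4 of 19, where 3.67% of all windows matched. The motif was picked with the members' values known, and a match describes letters, not binding. The 6 stretches are shown because the ATF4 targets are followed as a group in the comparisons. Each has 30 bases on the gene's strand, 5′ to 3′, with the motif in capitals.
AARS1 (chr16:70289675-70289704, minus strand): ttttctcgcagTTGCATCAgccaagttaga
CARS1 (chr11:3057407-3057436, minus strand): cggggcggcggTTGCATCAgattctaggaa
IARS1 (chr9:92293692-92293721, minus strand): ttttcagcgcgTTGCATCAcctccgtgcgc
MARS1 (chr12:57488053-57488082, plus strand): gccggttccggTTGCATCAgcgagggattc
NARS1 (chr18:57621804-57621833, minus strand): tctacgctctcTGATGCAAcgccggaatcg
TARS1 (chr5:33440956-33440985, plus strand): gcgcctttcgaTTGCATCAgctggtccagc
With the first transcribed base counted as 1, the motif began at -187 in AARS1, -13 in IARS1, -4 in MARS1, -2 in CARS1, 3 in TARS1 and 15 in NARS1. In MARS1 and CARS1 the motif spanned the start.

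NR1D1 was checked first. Its control then treated levels were 18.2 then 11.2 TPM in 8505C, 21.97 then 10.1 in CAL-62, 190.0 then 209 in TPC-1, 105 then 137 in FTC-133. The siRNA lines thus kept a ratio of 0.616 and 0.462, and the vector added little (1.099 and 1.299) to levels that were already higher. Recovered reads, in units of 1000000, came to 12.86 to 23.18 a library. RNA of the mitochondrial genome took 57.2% of CAL-62 control TPM and 67.9% with siRNA, against 15.7% to 29.3% elsewhere. All genes of CAL-62 had a median log2 ratio of -0.28, which became 0.11 when that genome was left out of the total. On the log2(TPM + 1) scale the siRNA ratio of NR1D1 was -0.65 in 8505C and -1.04 in CAL-62. Less the median of all genes in the line, the same ratios were -0.70 and -0.77. The thyroid markers TG and SLC5A5 were below 1 TPM in every library, and of the thyroid transcription factors PAX8 had 0.503 then 0.501 TPM in 8505C, 53.8 then 90.3 in CAL-62, 330.1 then 316 in TPC-1, 78.9 then 124 in FTC-133, and NKX2-1 had 63.4 then 100.3 TPM in 8505C, 0 then 0 in CAL-62, 0 then 0 in TPC-1, 14.2 then 22.03 in FTC-133. Summed leukocyte markers reached at most 0.326 TPM. Summed epithelial markers were 64.5 TPM in FTC-133 control and 179.2 with the vector, and 183.1 and 349.7 in TPC-1. Fibroblast markers summed to 31.2 and 66.7 TPM in FTC-133, mostly LUM. The 3 endothelial markers summed to 49.5 TPM in 8505C control and 145.2 with siRNA, nearly all of it CDH5, and to under 1 TPM elsewhere; the part of these markers in the results was not tested. In bulk RNA, fewer cells of a kind and less RNA per cell cannot be told apart.

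Cytosolic enzymes had the higher levels in all 8 libraries. In the controls the median cytosolic member had 127.6 TPM in 8505C, 59.8 in CAL-62, 193.4 in TPC-1 and 132.2 in FTC-133, while the median mitochondrial member had 16.2, 12.3, 30.6 and 18.5. The cytosolic median was thus 4.86 to 7.89 times the mitochondrial one. Summed control levels were 2201, 1269, 3731 and 2680 TPM for the cytosolic set and 462.7, 295.7, 712.9 and 457.6 for the mitochondrial set. CAL-62 had the lowest sums on this scale. With the mitochondrial genome left out of the totals, its cytosolic sum of 2966 was still below 3112 in 8505C, 4516 in TPC-1 and 3243 in FTC-133. Its mitochondrial sum of 691.3 was then above 654.2 in 8505C and 553.7 in FTC-133 and below 863 in TPC-1. The tables were normalised line by line, so no test of levels across lines was made.

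**Figure D1:**
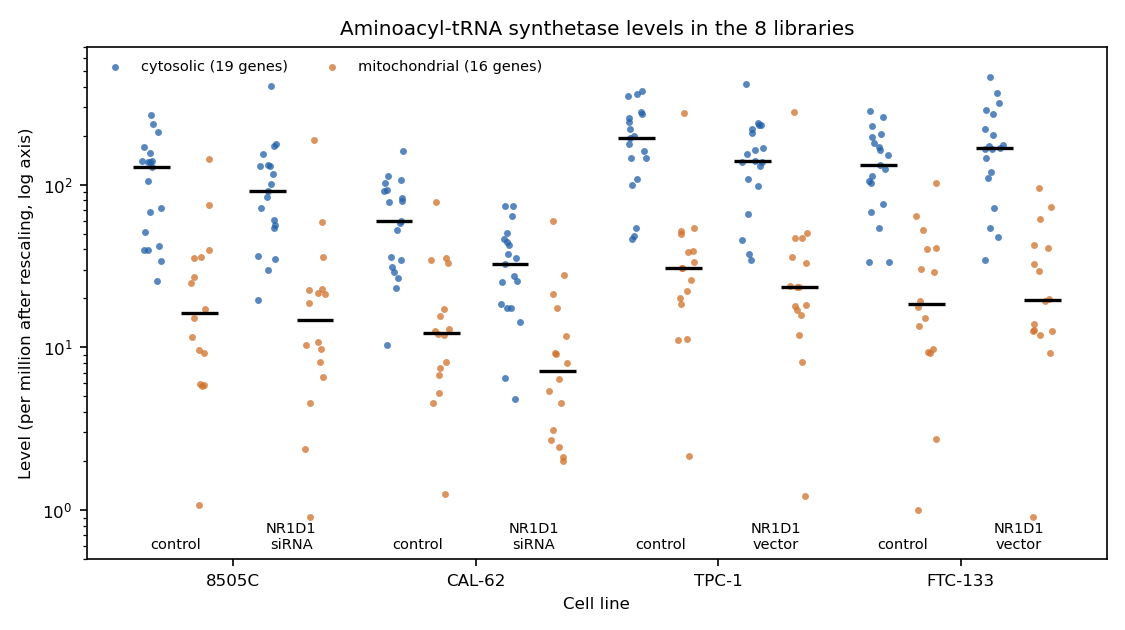
Level of each aminoacyl-tRNA synthetase gene in the 8 libraries, in TPM on a log axis. Each point is 1 gene, in separate colours for the 19 cytosolic and the 16 mitochondrial enzymes, and bars are medians. The cytosolic median lies above the mitochondrial median in every library, and IARS2 is the highest mitochondrial point throughout.

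KARS1, the lysine enzyme, had the highest mean control level, 240.5 TPM ± 105 (SD over 4 lines). IARS1, for isoleucine, had 223 ± 104, AARS1, for alanine, 214 ± 123, and TARS1, for threonine, 181 ± 106. Neighbours in this order differed by less than their spread over lines, and the top gene was TARS1 in 8505C, IARS1 in CAL-62 and TPC-1, and AARS1 in FTC-133. At the low end stood CARS1, for cysteine, at 37.5 ± 11.3 TPM and HARS1, for histidine, at 37.2 ± 8.76. Control then treated levels of CARS1 were 33.7 then 36.6 TPM in 8505C, 28.8 then 17.4 in CAL-62, 54.2 then 45.7 in TPC-1, 33.5 then 53.7 in FTC-133. HARS1 had 42.2 then 34.8 TPM in 8505C, 26.7 then 18.6 in CAL-62, 46.2 then 34.3 in TPC-1, 33.5 then 34.4 in FTC-133. Both stayed in a narrow range beside the top members.

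IARS2, the mitochondrial isoleucine enzyme, stood apart from its set. Its control then treated levels were 143 then 187 TPM in 8505C, 77.6 then 59.3 in CAL-62, 274 then 278 in TPC-1, 103 then 95.4 in FTC-133, and in FTC-133 alone it lay below the cytosolic median. RARS2, for arginine, came next at 57.2 ± 16.9 TPM, then HARS2 at 38.3 ± 2.75 and YARS2, for tyrosine, at 37.7 ± 9.58. RARS2 had 75.1 then 59.2 TPM in 8505C, 35.5 then 27.8 in CAL-62, 53.9 then 50.7 in TPC-1, 64.3 then 61.1 in FTC-133. HARS2 had 39.7 then 36.02 TPM in 8505C, 34.4 then 21.3 in CAL-62, 38.3 then 35.8 in TPC-1, 40.7 then 40.96 in FTC-133. RARS2 was above HARS2 in each control, while HARS2 and YARS2 differed by less than their spread. PARS2, for proline, at 7.66 ± 4.35 and SARS2, for serine, at 1.37 ± 0.538 TPM were lowest.

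SARS2 had 1.08 then 0.903 TPM in 8505C, 1.25 then 2.01 in CAL-62, 2.16 then 1.21 in TPC-1, 1.001 then 0.902 in FTC-133, on 12 to 41 recovered reads. GENCODE 29 places it on chromosome 19 (38915266 to 38930896, GRCh38), with 57.0% of its exon bases shared with other genes. Reads in shared bases may have gone uncounted, so its level is uncertain. Among 14 amino acids with a gene for each compartment, the cytosolic gene had the higher control level in 14, 12, 14 and 13 pairs in 8505C, CAL-62, TPC-1, FTC-133. The exceptions were HARS1, at 0.775 of HARS2 in CAL-62 and 0.824 in FTC-133, and WARS1, for tryptophan, at 0.873 of WARS2 in CAL-62.

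With NR1D1 siRNA most members had lower levels in CAL-62, while 8505C was divided. In CAL-62, 26 of 35 members were at least 1.5-fold lower, where 29.0% of 16230 genes were, and 0 of 35 were at least 1.5-fold higher, where 11.4% were. The median log2 ratio, here and below on the log2(TPM + 1) scale, was -0.86 for cytosolic and -0.78 for mitochondrial members. With the mitochondrial genome left out of the totals both medians were -0.46, and 16 of 35 members were at least 1.5-fold lower beside 15.6% of genes; with trimmed-mean centring the medians were -0.55 and -0.50, with 16 of 35 beside 14.9%. All 19 cytosolic members had a ratio below 0 under each of these scalings, and of the mitochondrial members AARS2, IARS2, RARS2 and VARS2 were below 0 at first and above it without the mitochondrial genome. The summed cytosolic level was 4.29 times the mitochondrial one in the control and 3.41 times with siRNA.

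In 8505C the medians were 0.08 for cytosolic and -0.34 for mitochondrial members, beside 0.05 for all genes. There 10 of 34 members were at least 1.5-fold lower (background 15.0% of 16499 genes) and 4 of 34 at least 1.5-fold higher (background 23.7%). SARS2 averaged under 1 TPM in 8505C and in FTC-133 and is left out of those counts. Single libraries give no replicate check. Exact binomial 95% intervals on recovered reads, which cover counting error only, left out a ratio of 1 for 30 of 35 members in 8505C, 33 in CAL-62, 27 in TPC-1 and 24 in FTC-133. The share of all genes whose interval left out 1 was not counted, so these counts do not set the members apart. The ratios kept the mitochondrial genome in the totals, where the median log2 ratio of all genes in CAL-62 was -0.28.

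**Figure D2:**
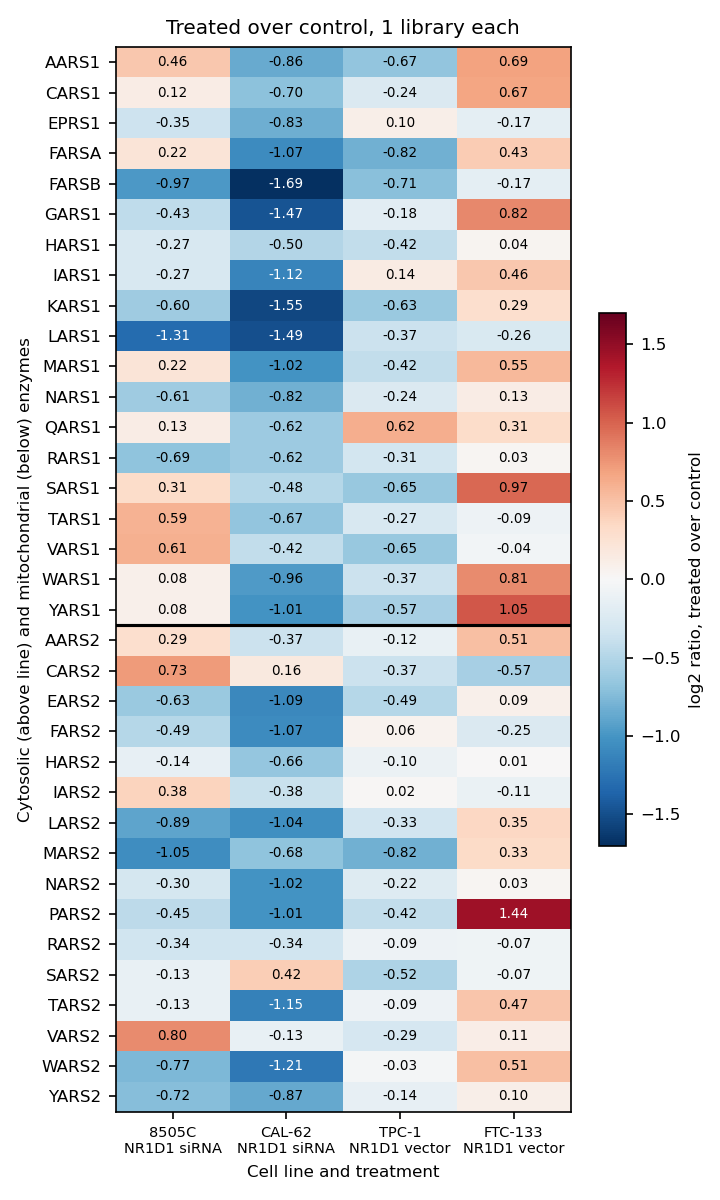
Treated over control log2 ratio of each member in each line, on the log2(TPM + 1) scale, with cytosolic and mitochondrial enzymes in separate blocks. Blue is lower and red is higher in the treated library. In CAL-62 only CARS2 at 0.16 and SARS2 at 0.42 are above 0, and the highest value in FTC-133 is 1.44 for PARS2.

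LARS1 and FARSB had the lowest siRNA log2 changes averaged over both lines. LARS1, the leucine enzyme and a leucine sensor for mTORC1, lies on chromosome 5 (146113038 to 146182660, GRCh38). Its control then treated levels were 140.5 then 56.2 TPM in 8505C, 78.97 then 27.6 in CAL-62, 178 then 138 in TPC-1, 132 then 110.4 in FTC-133. The treated library was the lower one in each line. The siRNA log2 change was -1.40 (SE 0.26), with a limma adjusted p of 0.246 that ran from 0.0705 to 0.708 over the alternatives, so it did not pass.

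FARSB, on chromosome 2 (222570536 to 222656337), encodes the beta subunit of the phenylalanine enzyme, a tetramer of FARSA and FARSB chains. Control then treated levels were 39.4 then 19.6 TPM in 8505C, 23.1 then 6.44 in CAL-62, 108 then 65.6 in TPC-1, 53.96 then 47.8 in FTC-133, again lower in each treated library. Its siRNA log2 change was -1.33 (SE 0.31, limma adjusted p = 0.277). FARSA, the alpha subunit, had 71.5 then 83.5 TPM in 8505C, 31.1 then 14.3 in CAL-62, 243 then 137 in TPC-1, 125 then 168 in FTC-133. The subunits did not keep step, since FARSA over FARSB was 1.81 in 8505C control and 4.25 with siRNA, and 1.35 and 2.22 in CAL-62. In the vector lines it was 2.24 and 2.09 for TPC-1, then 2.31 and 3.52 for FTC-133.

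Of the enzymes that serve both compartments, KARS1 had 236 then 155 TPM in 8505C, 106 then 35.5 in CAL-62, 361 then 232 in TPC-1, 259 then 317 in FTC-133, and GARS1, for glycine, had 137 then 101 TPM in 8505C, 91.5 then 32.4 in CAL-62, 269.9 then 238 in TPC-1, 205 then 364 in FTC-133. Both were lower with siRNA in both lines, and both were higher with the vector in FTC-133 and lower in TPC-1. The siRNA log2 changes were -1.08 for KARS1 (SE 0.37, limma adjusted p = 0.352) and -0.95 for GARS1 (SE 0.38, adjusted p = 0.407).

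NARS1, for asparagine, had control then treated levels of 139.6 then 91.3 TPM in 8505C, 78.4 then 44.1 in CAL-62, 199 then 169 in TPC-1, 152 then 166 in FTC-133. RARS1, the arginine enzyme of the complex, had 211 then 131 TPM in 8505C, 114 then 73.6 in CAL-62, 161 then 129.5 in TPC-1, 169 then 173 in FTC-133. Both were lower with siRNA in both lines, with log2 changes of -0.71 for NARS1 (SE 0.27, limma adjusted p = 0.383) and -0.65 for RARS1 (SE 0.27, adjusted p = 0.411). EPRS1, the fused enzyme for glutamate and proline, had log2 ratios of -0.35 and -0.83 in the siRNA lines and HARS1 had -0.27 and -0.50.

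**Figure D3:**
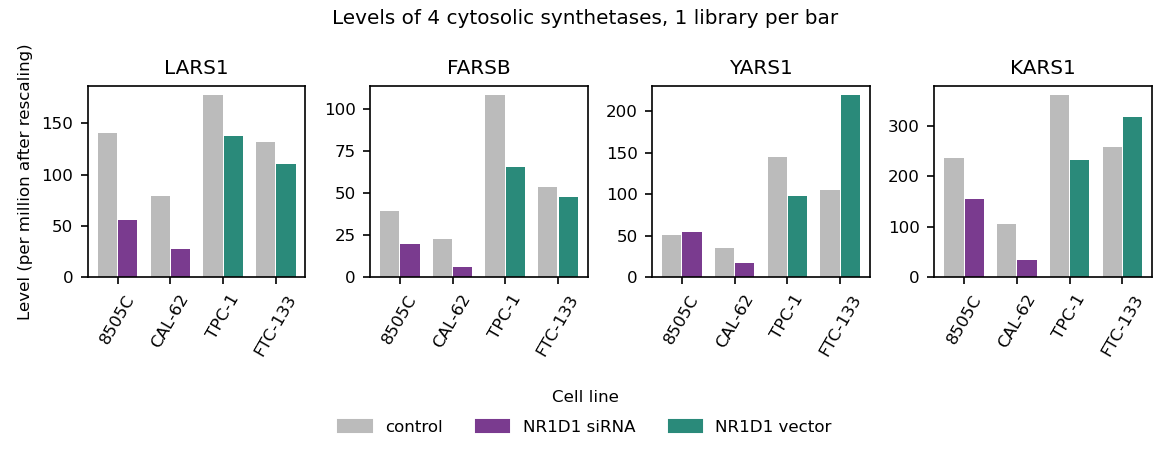
Levels of LARS1, FARSB, YARS1 and KARS1 in TPM, with 1 bar per library and a separate axis from 0 for each gene. Bar colours mark control, NR1D1 siRNA and NR1D1 vector. LARS1 and FARSB are below their control in all 4 lines, and YARS1 is highest in FTC-133 with the vector, at 219 TPM.

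Several mitochondrial enzymes were lower in both siRNA lines. WARS2 had 17.3 then 9.705 TPM in 8505C, 11.9 then 4.58 in CAL-62, 18.6 then 18.1 in TPC-1, 9.42 then 13.8 in FTC-133. LARS2, for leucine, had 9.28 then 4.54 TPM in 8505C, 7.44 then 3.101 in CAL-62, 20.04 then 15.8 in TPC-1, 9.77 then 12.8 in FTC-133. EARS2, for glutamate, had 35.5 then 22.7 TPM in 8505C, 12.6 then 5.37 in CAL-62, 33.6 then 23.5 in TPC-1, 40.2 then 42.7 in FTC-133. All of these were lower with siRNA, and in FTC-133 each was higher with the vector. The siRNA log2 changes were -0.99 for WARS2 (SE 0.30), -0.97 for LARS2 (SE 0.31) and -0.86 for EARS2 (SE 0.30), with limma adjusted p-values of 0.315, 0.329 and 0.353.

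YARS2 had 35.7 then 21.3 TPM in 8505C, 32.9 then 17.6 in CAL-62, 51.7 then 46.8 in TPC-1, 30.4 then 32.6 in FTC-133. FARS2, for phenylalanine, had 9.68 then 6.596 TPM in 8505C, 6.77 then 2.69 in CAL-62, 11.3 then 11.9 in TPC-1, 15.1 then 12.6 in FTC-133. MARS2, the methionine enzyme, encoded by a single exon, had 5.98 then 2.38 TPM in 8505C, 4.52 then 2.44 in CAL-62, 30.5 then 16.9 in TPC-1, 9.26 then 11.9 in FTC-133, on 37 to 98 recovered reads in the siRNA lines. In these siRNA lines all of them were below their controls, with log2 changes of -0.79 for YARS2, -0.78 for FARS2 and -0.86 for MARS2 (limma adjusted p = 0.34, 0.395 and 0.418). NARS2, for asparagine, had 26.9 then 21.7 TPM in 8505C, 17.2 then 7.99 in CAL-62, 38.9 then 33.2 in TPC-1, 28.8 then 29.4 in FTC-133, and TARS2, for threonine, had 24.8 then 22.6 TPM in 8505C, 15.5 then 6.42 in CAL-62, 49.9 then 46.9 in TPC-1, 52.6 then 73.2 in FTC-133. Each was at least 2-fold lower in CAL-62 on this scale and closer to its control in 8505C. Under the other scalings their CAL-62 log2 ratios fell short of 2-fold. They were -0.67 for NARS2 and -0.83 for TARS2 without the mitochondrial genome, and -0.72 and -0.86 with trimmed-mean centring.

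In the joint limma fit of both siRNA lines, 0 of 35 members and 0.0% of 17595 genes had an adjusted p under 0.05. At an unadjusted p under 0.05, 11 of 35 members were lower, where 7.52% of genes were, and 0 were higher, where 4.5% were. The 11 were the cytosolic FARSB, GARS1, KARS1, LARS1, NARS1 and RARS1 and the mitochondrial EARS2, FARS2, LARS2, WARS2 and YARS2. Without TPC-1 or FTC-133, which share in the estimate of the spread, 7 members were lower at that level, where 1069 and 1068 of 17595 genes were. Without 8505C or CAL-62 the siRNA effect is the ratio of 1 line. The cytosolic and mitochondrial medians were -0.86 and -0.78 in CAL-62 alone, and 0.08 and -0.34 in 8505C alone. The median siRNA log2 change was -0.44 for cytosolic and -0.65 for mitochondrial members, beside -0.07 for all genes. Across the 35 members, which share libraries, the ratios of 8505C and CAL-62 had a Pearson r of 0.58, given as a description.

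Some cytosolic enzymes had opposite signs in the siRNA lines. TARS1 had 267 then 403 TPM in 8505C, 102 then 64.1 in CAL-62, 278 then 231 in TPC-1, 76.3 then 71.8 in FTC-133. AARS1 had 128 then 176 TPM in 8505C, 92.8 then 50.7 in CAL-62, 351 then 220.3 in TPC-1, 282 then 457 in FTC-133. Each was higher with siRNA in 8505C and lower in CAL-62. VARS1, for valine, had log2 ratios of 0.61 and -0.42, SARS1, for serine, 0.31 and -0.48, MARS1, for methionine, 0.22 and -1.02, QARS1, for glutamine, 0.13 and -0.62, CARS1 0.12 and -0.70, WARS1 0.08 and -0.96 and YARS1 0.08 and -1.01. In CAL-62 without the mitochondrial genome, VARS1 was at -0.02 and SARS1 at -0.08. Among mitochondrial members, AARS2, for alanine, had 0.29 and -0.37 and VARS2 0.80 and -0.13, with the CAL-62 values turning to 0.01 and 0.27 under that scaling. Another gene on the same strand, GTF2H4, shares 22.0% of the exon bases of VARS2.

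With the NR1D1 vector the 2 lines shared a sign for 6 of 19 cytosolic and 3 of 16 mitochondrial members. The share over all genes was not counted. In TPC-1, 16 of 19 cytosolic and 14 of 16 mitochondrial members had ratios below 0, where 53.2% of all genes had. Medians in TPC-1 were -0.37 and -0.18 beside -0.02 for all genes. There 7 of 35 members were at least 1.5-fold lower (background 13.2% of 16175 genes) and 1 of 35 at least 1.5-fold higher (background 13.5%). In FTC-133, 14 of 19 cytosolic and 11 of 15 mitochondrial members were above 0, where 9042 of 16501 genes were. These counts were 14 of 19 and 9 of 16 without the mitochondrial genome, and 12 of 19 and 9 of 15 with trimmed-mean centring. Medians in FTC-133 were 0.31 and 0.10 beside 0.05 for all genes. There 7 of 34 members were at least 1.5-fold higher, near the background of 19.4% of 16501 genes, and 0 at least 1.5-fold lower (background 14.8%). The summed cytosolic level in FTC-133 was 5.86 times the mitochondrial one in the control and 7.26 times with the vector.

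YARS1, on chromosome 1 (32775237 to 32818153), had control then treated levels of 51.3 then 54.4 TPM in 8505C, 35.8 then 17.3 in CAL-62, 145 then 97.7 in TPC-1, 106 then 219 in FTC-133. Its vector ratio was 2.08 (95% interval 1.997 to 2.161) in FTC-133 and 0.672 (0.648 to 0.698) in TPC-1. MARS1 had 25.5 then 29.9 TPM in 8505C, 52.3 then 25.2 in CAL-62, 145 then 108 in TPC-1, 113 then 166 in FTC-133, and 12.4% of its exon bases are shared with opposite-strand genes. IARS1 had 157 then 130.4 TPM in 8505C, 162 then 73.8 in CAL-62, 377 then 416 in TPC-1, 196 then 269.7 in FTC-133. With the vector YARS1 and MARS1 were higher in FTC-133 and lower in TPC-1, and IARS1 was higher in both. SARS1 had log2 ratios of -0.65 and 0.97 in TPC-1 and FTC-133, WARS1 -0.37 and 0.81, VARS1 -0.65 and -0.04, EPRS1 0.10 and -0.17 and QARS1 0.62 and 0.31. QARS1 was the member at least 1.5-fold higher in TPC-1.

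The 6 cytosolic members at least 1.5-fold higher in FTC-133 were AARS1, CARS1, GARS1, SARS1, WARS1 and YARS1, all on the list of ATF4 targets, which holds 13 of the 19 cytosolic members. That is 6 of 13, or 46.2% of the list, beside 19.4% of all genes in FTC-133, and 0 of the 6 others. Over that list the median log2 ratio was 0.08 in 8505C, -0.86 in CAL-62, -0.37 in TPC-1 and 0.55 in FTC-133. Over the 6 other cytosolic members, FARSA, FARSB, HARS1, KARS1, QARS1 and RARS1, it was -0.44, -0.84, -0.53 and 0.16. The list was not uniform in FTC-133, where EPRS1, LARS1, TARS1 and VARS1 were below 0, at -0.17, -0.26, -0.09 and -0.04. The genes with the printed motif, AARS1, CARS1, IARS1, MARS1, NARS1 and TARS1, had 0.69, 0.67, 0.46, 0.55, 0.13 and -0.09 there. EPRS1, GARS1, SARS1 and WARS1, whose windows did not hold these letters, had -0.17, 0.82, 0.97 and 0.81.

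**Figure D4:**
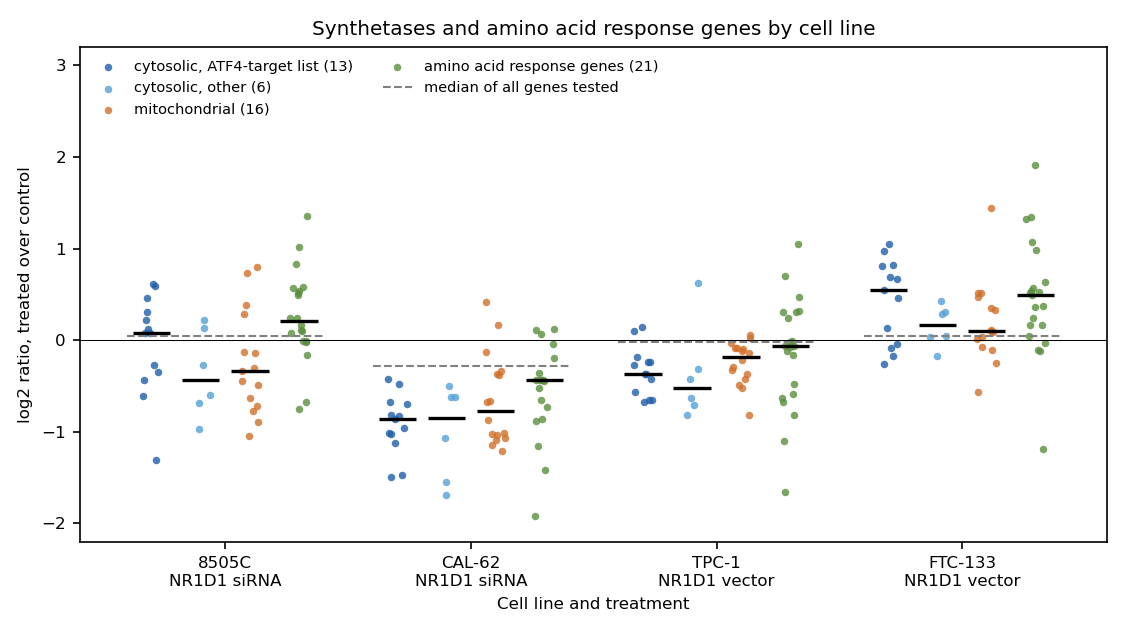
Treated over control log2 ratio by line for the 13 cytosolic ATF4 targets, the 6 other cytosolic enzymes, the 16 mitochondrial enzymes and 21 amino acid response genes, on the log2(TPM + 1) scale. Points are genes with a mean of at least 1 TPM in the line, bars are medians, and dashed lines are the medians of all genes. The ATF4 targets have a median of -0.86 in CAL-62 and 0.55 in FTC-133.

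PARS2 was the mitochondrial member with the highest vector ratio. It had 11.5 then 8.17 TPM in 8505C, 5.26 then 2.105 in CAL-62, 11.2 then 8.09 in TPC-1, 2.74 then 9.18 in FTC-133. In FTC-133 the ratio of 3.34 (95% interval 2.17 to 5.31) rested on 28 and 89 recovered reads, and the other 3 lines had lower treated levels. AARS2 had vector log2 ratios of -0.12 and 0.51, VARS2 -0.29 and 0.11 and IARS2 0.02 and -0.11.

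For the vector, limma gave 0 of 35 members and 0.0% of 17595 genes at an adjusted p under 0.05. At an unadjusted p under 0.05 it also gave 0 members, where 2.84% of genes were higher and 1.62% lower. The median vector log2 change was -0.04 for cytosolic and -0.06 for mitochondrial members.

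Averaged over the 4 lines in the labelled direction of NR1D1, 17 of 19 cytosolic and 12 of 16 mitochondrial members were above 0. Their median log2 differences were 0.28 and 0.29 beside 0.06 for all genes, and the share of all genes above 0 was not counted. The 0.06 became -0.02 with the mitochondrial genome left out of the totals. The member medians and counts were not repeated under that scaling, so 0.06 is the value to set beside them. Single lines differed, and in TPC-1 16 of 19 cytosolic and 14 of 16 mitochondrial members went against that direction. After adjustment limma gave 0 members and 0.0% of genes. At an unadjusted p under 0.05, 1 member was higher, where 2.35% of genes were, and 0 were lower, where 1.74% were. That member was WARS2, at 0.61 (SE 0.26, limma adjusted p = 0.938). Without TPC-1 there were 5 such members, where 597 of 17595 genes were higher at that level. Without 8505C, CAL-62 or FTC-133 there were 0, where 304, 197 and 498 genes were. IARS1 had the sign of NR1D1 in each line, with a 4-line log2 difference of 0.50 (SE 0.24, limma adjusted p = 0.938).

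CARS2, the mitochondrial cysteine enzyme on chromosome 13 (110641412 to 110713603), had the opposite sign in each line. Its control then treated levels were 5.88 then 10.4 TPM in 8505C, 8.097 then 9.18 in CAL-62, 30.7 then 23.5 in TPC-1, 19.2 then 12.6 in FTC-133, so it was higher with siRNA and lower with the vector. The 4-line log2 difference was -0.46 (SE 0.21, limma adjusted p = 0.938), on 266 to 1884 recovered reads. CARS2 was singled out after its values had been seen.

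The siRNA and vector effects, set in the same NR1D1 direction, were also tested against each other. After adjustment limma gave 0 of 35 members and 0.0% of genes, and the smallest adjusted p of a member was 0.382, for LARS1. At an unadjusted p under 0.05 there were 3 members, LARS1, FARSB and EARS2, where 9.39% of genes were past it in either direction. The siRNA and the vector went into different lines, so approach and line cannot be told apart.

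The scaffolds of the multi-synthetase complex were read beside its enzymes. AIMP1 had 66.3 then 38.5 TPM in 8505C, 29.2 then 14.8 in CAL-62, 54.4 then 43.8 in TPC-1, 34.4 then 35.04 in FTC-133. AIMP2 had 27.2 then 22.7 TPM in 8505C, 10.4 then 5.05 in CAL-62, 94.5 then 51.96 in TPC-1, 30.95 then 61.1 in FTC-133, with 28.9% of its exon bases shared with EIF2AK1 on the other strand. EEF1E1 had 22.1 then 17.1 TPM in 8505C, 21.3 then 13.2 in CAL-62, 14.2 then 14.2 in TPC-1, 13.4 then 14.2 in FTC-133. All were lower with siRNA in both lines, and AIMP2 had the widest vector range. The 7 complex enzymes had median log2 ratios of -0.35, -1.02, -0.31 and 0.29 (line order as above), and the 12 cytosolic enzymes outside it 0.10, -0.84, -0.49 and 0.55.

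Genes that finish, check or handle tRNA were read from 3 lists, beside all genes, of which 47.1% had a ratio below 0 in 8505C and 67.4% in CAL-62 (43.6% with the mitochondrial genome left out). Below 0 in 8505C were 4 of 4 charging helpers, 3 of 4 editing genes and 5 of 6 handling genes, and in CAL-62 all of them. These counts kept the mitochondrial genome in the totals, so 67.4% is the share to set beside CAL-62. They were not repeated with that genome left out. GATB, GATC and QRSL1, the subunits that make mitochondrial glutaminyl-tRNA, were among the helpers. The log2 ratios over the 4 lines, in the order used above, were -0.50, -1.16, -0.19 and -0.28 for GATB. GATC had -0.86, -0.91, -0.39 and 0.17, and QRSL1 had -0.64, -0.56, -0.37 and 0.16. MTFMT, which formylates the mitochondrial initiator tRNA, had -0.05, -0.59, 0.32 and 0.40. GATC shares 47.6% of its exon bases with other genes. DTD2, which clears mischarged tRNA, had -0.75 and -1.24 with siRNA, and PTRH2, a peptidyl-tRNA hydrolase gene, had -0.75 and -1.02. AARSD1, an editing gene, had 0.28 and -0.30. Of the tRNA handling genes, the exporter XPO5 had -0.61 and -1.09 and the CCA-adding enzyme TRNT1 -0.88 and -0.71, while the tRNA 3′ end nuclease ELAC2 had 0.00 and -0.39.

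Mitochondrial translation factors were below 0 for 7 of 7 measured genes in both siRNA lines, and 7 of 7 were also below the median of all genes in each. The elongation factor GFM1 had -0.95 and -1.02, the initiation factor MTIF3 -0.58 and -0.74 and the recycling factor MRRF -0.52 and -0.64. For siRNA limma called 0 genes of these lists after adjustment. At an unadjusted p under 0.05 lower it gave 1 of 3 scaffolds, 2 of 4 charging helpers, 2 of 4 editing genes, 2 of 6 handling genes and 2 of 7 translation factors, where 7.52% of genes were lower.

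The 21 amino acid response genes had medians of 0.21 in 8505C, -0.44 in CAL-62, -0.06 in TPC-1 and 0.49 in FTC-133. ATF4 itself, whose protein is controlled mainly at translation, had 381 then 408 TPM in 8505C, 281 then 153 in CAL-62, 788 then 566 in TPC-1, 519 then 732 in FTC-133. Its changes had the sign of the ATF4-target median in each line. The median of all genes also had these signs on this scale, at 0.05, -0.28, -0.02 and 0.05, so the match does not set the targets apart. TRIB3, a pseudokinase gene, had log2 ratios of 1.02, -0.45, -0.07 and 1.34, PHGDH, the first enzyme of serine synthesis, 1.36, -0.44, 0.47 and 1.91, and DDIT3, the CHOP gene, 0.24, -0.20, -1.10 and 0.98. DDIT3 shares 39.6% of its exon bases with other genes, MARS1 among them. ATF4, TRIB3, PHGDH and DDIT3 were named after their values had been seen.

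The cystine transporter gene SLC7A11 had siRNA log2 ratios of -0.75 and -1.16, MTHFD2, of mitochondrial folate metabolism, -0.67 and -1.92, and the lipoprotein receptor gene VLDLR 0.57 and 0.67, although its CAL-62 control level was only 0.386 TPM. With the vector the stress gene DDIT4 had 1.05 and 1.32 and the secreted factor gene STC2 -1.66 and -1.19. After adjustment limma called 0 of the 21 for siRNA, vector or 4 lines. At an unadjusted p under 0.05 it gave 2 lower and 0 higher for siRNA, where 7.52% and 4.5% of genes were. For the vector it gave 1 higher and 1 lower, where 2.84% and 1.62% of genes were.

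WARS1, an interferon-induced synthetase gene, was set beside 6 interferon genes. IRF1, a transcription factor gene, had log2 ratios of 0.94, 0.57, -0.64 and 1.94 and GBP1, a guanylate-binding protein gene, 0.68, 1.06, 0.74 and 1.63, while WARS1 had 0.08, -0.96, -0.37 and 0.81. GBP2 had -2.19, -0.54, 1.12 and 1.16, and in CAL-62 it was below 1 TPM in both libraries. WARS1 and IRF1 had the same sign in 8505C, TPC-1, FTC-133 but not in CAL-62, and WARS1 and GBP1 had opposite signs in CAL-62 and TPC-1.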

How the data were processed

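RNA-seq of 8 libraries was used, 1 per group and 2 per line, so p-values measure only the spread between lines. The submitters' processing notes list Trimmomatic 0.38, featureCounts 2.0.0, FastQC, MultiQC and GRCh38; the aligner, annotation and strand setting are not stated there. The authors deposited TPM for 8505C and CAL-62. The TPC-1 and FTC-133 tables were deposited under the name TPM, but their columns summed to 253330.3 to 261469.4 and behaved as FPKM against GENCODE 29 exon lengths, so they were read as FPKM. Every column was rescaled to 1000000, which gives TPM. Of 58884 identifiers, 58472 had a symbol.

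Ratios and tests used log2(TPM + 1), which understates ratios of low genes. limma 3.58.1 (R 4.3.3) was fitted to the 17595 genes with a mean of at least 1 TPM, with a cell line term, an intensity trend and Benjamini-Hochberg adjustment at 0.05. The siRNA and vector terms shared 2 residual degrees of freedom and the 4-line term had 3. The 1.5-fold calls within a line had no test. The fit was tested on simulated data. To recover reads, each value was multiplied by exon length and scaled until small values became whole; 92.7% to 93.7% of values of 1 to 10 reads, and 72.2% to 74.6% of all, were whole within 0.02. Recovered reads served for intervals only.

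Members and lists were chosen with earlier results of these data known. Levels in every library were given for members among the 4 highest or 2 lowest of a compartment, for those with log2 ratios of one sign and at least 0.5 in both lines of an approach, and for those at 1 or more in any line; a further rule, one sign and at least 0.3 in all 4 lines, was met by no member. RefSeq promoters (GRCh38.p14) held 30 of the 35 members, and LARS1, VARS1, YARS1, AARS2 and VARS2 were not matched.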

Additional observations from a re-analysis of the deposited data

How the results depend on the processing

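With 1 library per group, each result rests on single libraries, and SARS2 and PARS2 also on few reads. The fits were paired by cell line, which was a term of each, and the labels carry no replicate numbers for another block. Among genes with a mean of at least 5 TPM, limma called 77 genes for siRNA, 7 for the vector and 7 for the difference between approaches, beside 0 with a mean of at least 1, and LARS1 then had an adjusted p of 0.0705 and FARSB 0.0892 for siRNA. Trimmed-mean centring left 2 members at least 1.5-fold higher in 8505C. In CAL-62, 16 were at least 1.5-fold lower under that centring and without the mitochondrial genome, and 1 was higher under both and with a pseudocount of 0.1; in FTC-133, 1 was lower under these 3 settings. At a 2-fold limit 0 were higher and 2 lower in 8505C, 15 lower in CAL-62, 0 higher and 0 lower in TPC-1 and 2 higher in FTC-133. The share of all genes past 2-fold was not counted, and the 15 in CAL-62 kept the mitochondrial genome in the totals. With TPC-1 or FTC-133 left out, limma gave 7 members lower for siRNA at an unadjusted p under 0.05, where 1069 and 1068 of 17595 genes were. With 8505C or CAL-62 left out, 0 were higher for the vector, where 318 and 320 genes were. Leaving out each line in turn gave 0 to 5 higher in the 4-line fit, where 197 to 597 genes were. With all lines and a pseudocount of 0.1 that fit gave 0, where 401 genes were. The cause of these shifts was not tested.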

Other observations

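HARS1 and HARS2 lie head to head on chromosome 5 with annotated starts 436 bases apart, and 8.4% of HARS1 and 11.7% of HARS2 exon bases are shared with the opposite strand. Their log2 ratios were -0.27 and -0.14 in 8505C, -0.50 and -0.66 in CAL-62, -0.42 and -0.10 in TPC-1, and 0.04 and 0.01 in FTC-133. The signs were the same in each line, although the FTC-133 values turned to -0.02 and -0.05 with trimmed-mean centring. The part of shared bases was not tested.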
